A study of Mus musculus with 6 samples.

Results

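The atypical protein kinase C genes and the genes of the apical polarity complex they belong to were followed in small intestinal tumours of mice that lack both kinases in the intestinal epithelium. The set holds 10 genes of the 23393 named in the deposited count table, chosen by symbol with earlier results of these data known. It comprises the kinase genes Prkcz, for PKC zeta, and Prkci, for PKC lambda (also called iota), the adaptors Pard6a, Pard6b and Pard6g, the scaffolds Pard3 and Pard3b, the Lgl proteins Llgl1 and Llgl2, and Wwc1, which encodes Kibra. All 10 passed the filter on low counts and were tested.

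Poly(A) RNA of whole tissue was sequenced from 6 C57BL/6 mice aged 12 weeks. Both groups carry floxed alleles of both kinase genes. The 3 WT intestine libraries come from mice without Villin-Cre, so they are floxed controls and not mice with unmodified alleles. The 3 DKO tumour libraries come from tumours of Villin-Cre-positive mice. Villin-Cre is a recombinase transgene driven in intestinal epithelium, so stromal, muscle and immune cells of the same tissue keep the floxed alleles. The name of the deposited sheet calls the DKO samples normal, while its column headers and the sample labels say tumour, and the latter were followed. Genotype and tumour state change together and cannot be told apart, and non-tumour DKO intestine was not analysed here. The labels do not say whether the libraries were prepared together, so p-values cover only the spread between these samples.

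Atypical PKCs differ from the other PKC classes in that they do not respond to calcium or diacylglycerol, and they bind Par6 through a shared type of interaction domain. The GTPase Cdc42 binds Par6, and Par3 brings Par6 and the kinase to the apical junctions of epithelial cells. The active kinase phosphorylates Lgl and so keeps it off the apical membrane, while Kibra binds atypical PKC and also acts upstream of the Hippo kinases. In the intestinal epithelium this system sets up the apical surface that carries the brush border.

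Library totals lay between 12491561 and 15799269 counts. Across genes, Spearman correlations between libraries lay at 0.976 to 0.994 for pairs of controls, 0.964 to 0.984 for pairs of tumours and 0.911 to 0.933 for mixed pairs. DKO tumour 1 stood apart in 6 pancreatic acinar markers, which summed to 501 CPM (counts scaled to a common library size with TMM factors) there, to 32.4 and 35.0 CPM in DKO tumours 2 and 3, and to between 4.61 and 8.41 CPM in WT intestine. Outside DKO tumour 1 these sums were nearly all Cela1, at 32.0 and 34.9 CPM in DKO tumours 2 and 3. Every other acinar marker was at 0.134 CPM or less in those tumours. Pnlip, pancreatic lipase, was at 53.3 CPM in DKO tumour 1 and at 0 counts in each of the other 5 libraries. The 9 epithelium markers summed to between 8119 and 9945 CPM in WT intestine and to between 9326 and 13715 CPM in tumours, with 3 risen and 0 fallen (1 risen without any 1 library but DKO tumour 1). The list was mixed, since Epcam was lower in every tumour (mean 2574 and 1774 CPM, edgeR adjusted p = 0.0723). Cldn7 and Spint1 also had lower means in tumours. Krt19 (1211 and 3437 CPM), Krt8, Cdh1, Esrp1, Grhl2 and Ehf had higher means. The 8 smooth muscle markers summed to between 1410 and 1788 CPM in WT intestine and to between 732 and 1063 CPM in tumours, with 5 fallen and 0 risen (1 to 5 fallen without 1 library: 3 when WT intestine 1 or 3 was left out, 2 for DKO tumour 2 and 1 for DKO tumour 3). Under library totals 2 fell. Epcam, Cdh1 and Krt8 were above 798 CPM in every library, so epithelial transcripts were present throughout. Which epithelium they came from was not tested. In whole tissue, fewer cells of a type and less RNA per cell cannot be told apart.

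Because the family members are paralogues, their sequences bear on how far their counts can be separated. The 75-base stretches in which the coding sequences of the 2 kinases are most alike are shown first, since they carry the comparison of the deleted genes, and those of the 2 Lgl genes follow, since they carry the other call. Bases are written 5′ to 3′ on the coding strand, and capitals mark the positions at which the pair differs. They come from GENCODE M21 transcripts on GRCm38 (mm10). The kinase stretches run from exon 9 into exon 10 of 18 in both genes, at chr3:31037996-31038497 on the plus strand for Prkci and chr4:155286830-155289657 on the minus strand for Prkcz.
Prkci: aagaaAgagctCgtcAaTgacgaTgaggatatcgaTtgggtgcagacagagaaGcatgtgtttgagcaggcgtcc
Prkcz: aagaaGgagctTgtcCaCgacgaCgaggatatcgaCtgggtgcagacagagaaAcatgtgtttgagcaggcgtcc
Llgl1: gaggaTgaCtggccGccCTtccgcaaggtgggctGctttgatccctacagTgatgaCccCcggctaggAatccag
Llgl2: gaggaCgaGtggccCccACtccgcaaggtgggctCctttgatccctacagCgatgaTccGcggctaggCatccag
The Lgl stretches lie in exons 12 and 13 of 22 of Llgl1 (chr11:60708671-60708836, plus strand) and exons 13 and 14 of 26 of Llgl2 (chr11:115850123-115850285, plus strand).

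Reads were 75 bases long. Within the longest coding sequence of each gene, compared without gaps, the closest 75-base stretches differ at 7 positions between Prkci and Prkcz. Between Llgl1 and Llgl2 they differ at 10. The smallest distance was 11 positions for Pard6a and Pard6b and 15 for Pard3 and Pard3b. Pard6g was not compared in this way. No 75-base stretch of any member's transcripts occurs in the transcripts of another member. One gene outside the set does share sequence, the processed pseudogene Prkcz2 (chromosome 7, 27882755 to 27884510), whose transcript holds 744 of the 6449 distinct 75-base stretches of Prkcz, or 11.5%. The count table has no row of that name, and how the authors' counting treated such reads is not given. The 11.5% is a share of distinct stretches over all annotated transcripts and not of reads. How far Prkcz counts are affected is therefore not known. On the opposite strand, 3.87% of the stretches of Pard3b lie in the antisense gene Pard3bos1, and 64 exon bases of Llgl1 (1.32%) overlap Flii. The strand setting of the counting is not given.

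Of the 2 targeted kinases, Prkcz fell to 25.1% of its control level and Prkci was not lower in tumours. Prkcz (chromosome 4, 155260129 to 155361361) was at 70.1, 69.8 and 60.8 CPM in WT intestine 1 to 3 and at 19.3, 16.4 and 14.7 CPM in DKO tumours 1 to 3. Every tumour lay far below every control, and both groups were tight. The means were 66.9 ± 5.26 and 16.8 ± 2.33 CPM (SD, n = 3 each), and the log2 fold change was -1.99 (SE 0.15, 95% interval -2.34 to -1.64, edgeR adjusted p = 0.000233). Without any 1 of the 6 libraries the log2 fold change stayed between -2.09 and -1.89 and the adjusted p at or below 0.00254. Scaling the libraries to the epithelium markers instead gave -2.28. Smooth muscle markers moved in the same direction. Leukocyte markers summed to between 210 and 217 CPM in WT intestine and to between 128 and 207 CPM in tumours. Of 9 leukocyte markers tested, 2 rose and 1 fell. Fibroblast and endothelium markers summed higher in every tumour than in any control. The part of any of these cell types in the fall of Prkcz was not tested.

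Prkci (chromosome 3, 30995747 to 31052959) was at 53.3, 80.7 and 77.7 CPM in WT intestine 1 to 3 and at 98.1, 80.3 and 103 CPM in DKO tumours 1 to 3. The groups overlapped, since DKO tumour 2 lay just under WT intestine 2, and WT intestine 1 was the lowest library of all. The log2 fold change was 0.41 (SE 0.19, edgeR adjusted p = 0.134), with a 95% interval of -0.02 to 0.84. Without WT intestine 1 it was 0.24. The interval reaches just below 0 and excludes a fall of the size seen for Prkcz. These are counts over whole genes, so transcripts that lack a deleted exon and full transcripts are counted alike, and so are transcripts of epithelial and of other cells. RefSeq lists 3 start windows for Prkcz, which the counts do not separate.

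**Figure D1:**
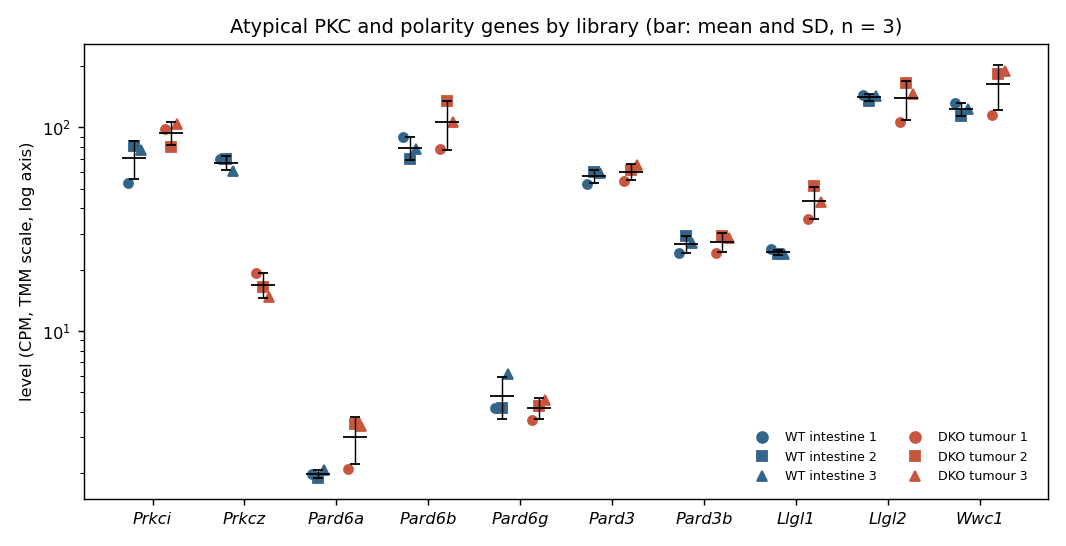
Level of each gene in each library, in CPM on the TMM scale with a log axis; symbols are libraries, and black bars give the mean and SD of 3 libraries. Prkcz drops from between 60.8 and 70.1 CPM to between 14.7 and 19.3 CPM, Llgl1 is higher in all 3 tumours, and the other groups overlap or, for Pard6a, nearly touch.

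In transcript counts of whole tissue, the make-up of the atypical PKC pair turned from near balance to mostly Prkci. Transcripts that lack a deleted exon are counted here too, so the shares do not measure the kinase proteins. Per length of annotated exons, Prkcz made up 53.6%, 43.2% and 40.8% of the pair in WT intestine 1 to 3 and 14.7%, 15.2% and 11.1% in DKO tumours 1 to 3. Even the lowest control stood far above the highest tumour. The mean share was 45.9% ± 6.83 (SD, n = 3) in WT intestine and 13.7% ± 2.26 (SD, n = 3) in tumours. A two-sided exact permutation test gave p = 0.1, the smallest that 3 libraries against 3 allow. The summed level of both kinases was 20.7, 25.6 and 23.6 CPM per kilobase in WT intestine 1 to 3 and 20.7, 17.1 and 20.9 CPM per kilobase in DKO tumours 1 to 3. The groups overlapped and the difference of -3.72 CPM per kilobase was not separated from the spread (exact permutation p = 0.3). Under library totals in place of TMM both means were 21.4 CPM per kilobase.

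The 3 Par6 genes, which link the kinase to Cdc42, showed no change past the threshold. Pard6b (chromosome 2, 168081004 to 168101203) was at 89.8, 69.9 and 78.5 CPM in WT intestine 1 to 3 and at 77.8, 135 and 106 CPM in DKO tumours 1 to 3. DKO tumour 1 fell inside the range of the controls, while DKO tumours 2 and 3 lay above it. The log2 fold change was 0.42 (SE 0.21, 95% interval -0.06 to 0.90, edgeR adjusted p = 0.163). Pard6a, on counts of only 21 to 52 per library, was at 1.98, 1.89 and 2.08 CPM in WT intestine and at 2.08, 3.49 and 3.41 CPM in DKO tumours 1 to 3. The groups are ordered but meet at DKO tumour 1 (log2 fold change 0.59, SE 0.29, edgeR adjusted p = 0.162). Pard6g was at 4.16, 4.17 and 6.10 CPM in WT intestine and at 3.63, 4.30 and 4.59 CPM in tumours. Its log2 fold change was -0.21 (edgeR adjusted p = 0.537, SE 0.24), and 0.03 under library totals. Per length, Pard6b supplied most Par6 transcript in every library, with a share of 89.3% ± 1.74 (SD, n = 3) in WT intestine and 90.5% ± 1.08 (SD, n = 3) in tumours (exact permutation p = 0.4).

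The Par3 scaffolds showed no change past the threshold. Pard3 (chromosome 8, 127063893 to 127612286) was at 52.5, 60.3 and 59.5 CPM in WT intestine 1 to 3 and at 54.2, 61.9 and 65.1 CPM in DKO tumours 1 to 3. Pard3b (chromosome 1, 61638824 to 62642284) was at 24.0, 29.2 and 26.9 CPM in WT intestine and at 24.1, 29.3 and 28.7 CPM in tumours. The groups overlapped for both genes, with DKO tumours 2 and 3 above the controls for Pard3 and DKO tumour 2 just above them for Pard3b. The log2 fold changes were 0.07 (95% interval -0.23 to 0.37, edgeR adjusted p = 0.707) for Pard3 and 0.03 (95% interval -0.30 to 0.37, edgeR adjusted p = 0.884) for Pard3b, and with libraries scaled to the epithelium markers they were -0.24 and -0.28, where the median of all genes moved by -0.31. Pard3 made up 66.1% ± 0.801 (SD, n = 3) of the pair per length in WT intestine and 66.7% ± 0.871 (SD, n = 3) in tumours (exact permutation p = 0.5).

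Of the Lgl genes, which encode the basolateral substrates of the kinase, Llgl1 rose and Llgl2 showed no call. Llgl1 (chromosome 11, 60699723 to 60714186) was at 25.1, 23.8 and 23.8 CPM in WT intestine 1 to 3 and at 35.6, 51.3 and 42.9 CPM in DKO tumours 1 to 3. The controls were almost identical and all 3 tumours lay above them, DKO tumour 1 least. The log2 fold change was 0.83 (SE 0.16, 95% interval 0.46 to 1.20, edgeR adjusted p = 0.00781), a 1.78-fold rise. It was called without any 1 of the libraries, at 0.70 to 0.97 and an adjusted p of at most 0.0392, and with epithelium marker scaling, at 0.51 (adjusted p = 0.028).

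Llgl2 (chromosome 11, 115824049 to 115855780) was at 144, 134 and 143 CPM in WT intestine 1 to 3 and at 106, 165 and 146 CPM in DKO tumours 1 to 3. The tumours lay on both sides of the controls and the log2 fold change was -0.01 (SE 0.18, 95% interval -0.42 to 0.39, edgeR adjusted p = 0.957), with a positive sign under library totals (0.24) and upper-quartile scaling (0.07). As a share of Lgl transcript per length, Llgl2 was at 85.2%, 85.0% and 85.8% in WT intestine 1 to 3 and at 74.9%, 76.4% and 77.3% in DKO tumours 1 to 3. The shares did not overlap and spread little within a group, DKO tumour 1 included, with a mean difference of -9.11 percentage points. The exact permutation p was again 0.1, the smallest possible.

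**Figure D2:**
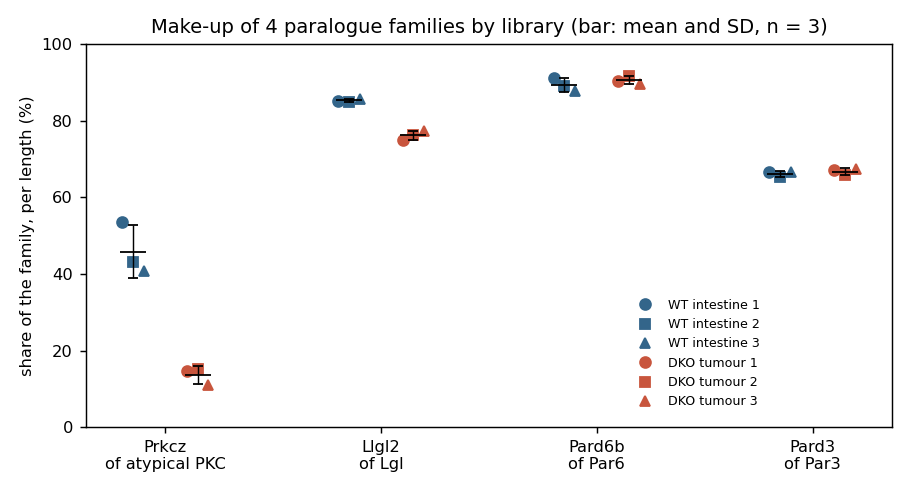
Share of each named gene in its family per length of annotated exons, in percent, by library; black bars give the mean and SD of 3 libraries. The Prkcz share falls from 45.9% to 13.7% and the Llgl2 share from 85.3% to 76.2% with no overlap, while the Pard6b and Pard3 shares overlap between groups.

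Wwc1 (chromosome 11, 35838400 to 35980527), which encodes Kibra, was at 131, 113 and 123 CPM in WT intestine 1 to 3 and at 115, 183 and 189 CPM in DKO tumours 1 to 3. DKO tumours 2 and 3 stood well above the controls and DKO tumour 1 among them. The log2 fold change was 0.40 (SE 0.20, 95% interval -0.06 to 0.87, edgeR adjusted p = 0.162). Without DKO tumour 1 the changes of Wwc1 (0.61, adjusted p = 0.0173), Pard6b (0.61, adjusted p = 0.036) and Pard6a (0.80, adjusted p = 0.0483) passed the threshold. Under library totals, which move the median of all genes by 0.26, Wwc1 (0.66, adjusted p = 0.0318) and Pard6b (0.68, adjusted p = 0.0309) passed as well.

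**Figure D3:**
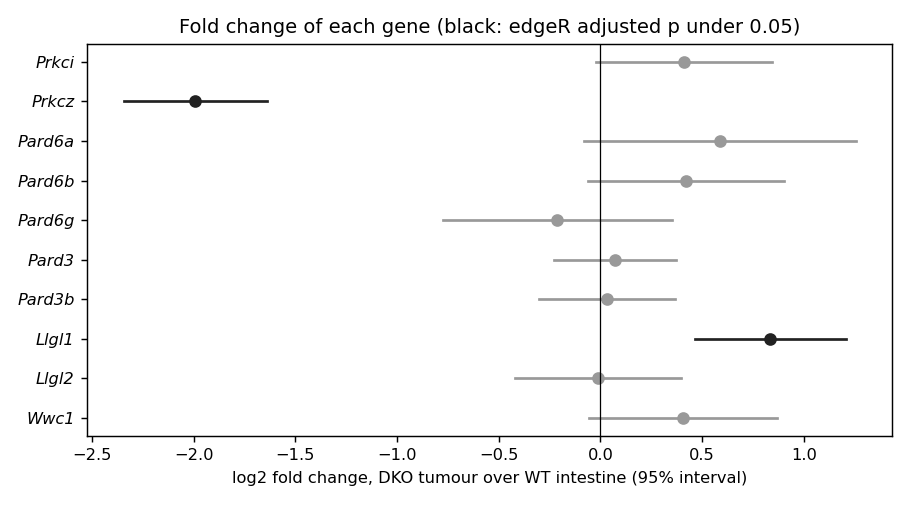
Log2 fold change of each gene, DKO tumour over WT intestine, with its 95% interval; black marks an edgeR adjusted p under 0.05. Only Prkcz (-1.99) and Llgl1 (0.83) are black, and the intervals of Prkci, Pard6a, Pard6b and Wwc1 reach just below 0.

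Over the 10 members, 1 rose and 1 fell, or 20%, where 29.7% of the 13866 genes tested were called (15.9% up and 13.8% down). The groups did not overlap for 3 members, Prkcz, Llgl1 and Pard6a, or 30%, where 48% of all genes tested did not overlap (25.1% with all tumours above and 22.9% with all tumours below). The median log2 fold change was 0.24 over the members and 0.02 over all genes tested. The members were therefore called no more often than genes at large, and 9 of 10 had a log2 fold change under 1 in size, as did 81.1% of all genes tested.

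Among the tumours, DKO tumour 1 was the lowest for 8 of the 10 members, all but Prkci and Prkcz, and the highest for Prkcz. DKO tumour 1 was the lowest tumour for 40.4% of all genes tested. It was also the library in which the pancreatic acinar markers were highest. Its 9 epithelium markers summed to 9326 CPM against 13715 and 12087 CPM in DKO tumours 2 and 3. Krt8, Krt19, Esrp1, Grhl2, Cldn7 and Spint1 were lowest in DKO tumour 1 among the tumours, while Epcam, Cdh1 and Ehf were not. Krt19 was at 2498 CPM there against 4087 and 3726 CPM, and Epcam at 1822 CPM against 1867 and 1633 CPM. The part of the acinar or the epithelium markers in the members' values was not tested. The coefficient of variation of Llgl2 was 3.79% among controls and 21.8% among tumours, and that of Wwc1 was 7.46% and 25.1%. It was also higher among tumours for Prkcz, Pard6a, Pard6b and Llgl1. For Prkci (21.3% and 12.8%) and Pard6g (23.3% and 11.8%) it was lower. For Pard3 (7.44% and 9.30%) and Pard3b (9.73% and 10.4%) it differed little. These spreads were not set beside those of all genes.

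**Figure D4:**
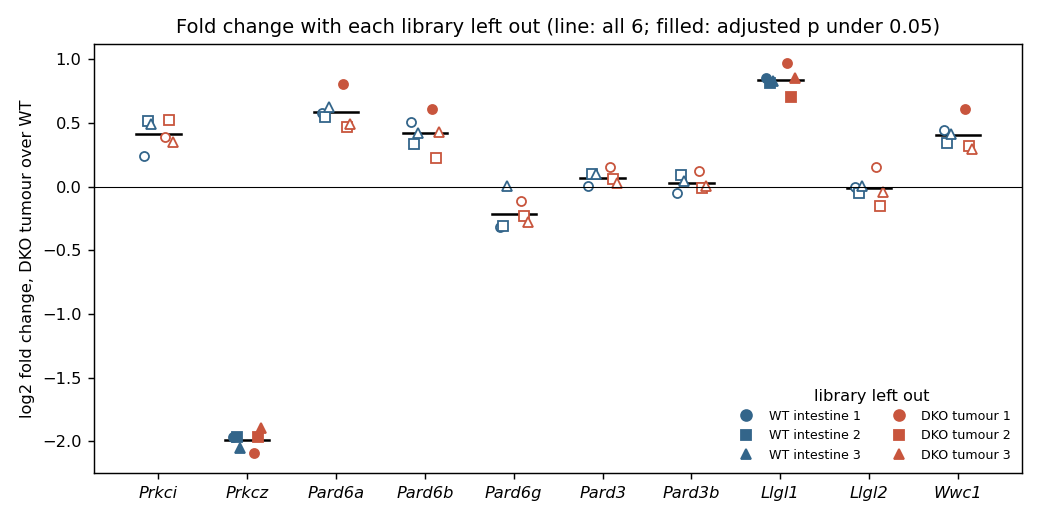
Log2 fold change of each gene refitted without 1 library at a time; the symbol names the library left out, filled symbols have an adjusted p under 0.05, and the line is the fit on all 6. Prkcz and Llgl1 are filled in all 6 refits, and Pard6a, Pard6b and Wwc1 in the refit without DKO tumour 1.

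Per length, the order of the members in WT intestine was Llgl2 (29.0 CPM per kilobase), Wwc1 (24.7), Pard6b (23.4), Prkci (12.7), Prkcz (10.6), Llgl1 (4.99), Pard3 (3.96), Pard3b (2.03), Pard6g (1.53) and Pard6a (1.25). The ranges over libraries overlapped for Wwc1 with Pard6b, Prkci with Prkcz, and Pard3b with Pard6g. Within every WT library, though, Wwc1 lay above Pard6b and Pard3b above Pard6g. Prkci lay below Prkcz in WT intestine 1 and above it in WT intestine 2 and 3. In tumours Prkcz (2.66 CPM per kilobase) lay below Pard3 (4.16) and Llgl1 (8.90), and Wwc1, Pard6b and Llgl2 overlapped at the top. With the longest transcript as the length, Prkcz came before Prkci in WT intestine and Pard3 (9.88 CPM per kilobase) before Llgl1 (5.64), so these orders rest on the length used.

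The other genes of the pathway, in 9 lists, changed about as often as genes at large. Of 107 entries, 106 were in the table and 101 could be tested, of which 13 rose and 15 fell, or 27.7%. Of all genes tested 29.7% were called, 15.9% up and 13.8% down, and these are the shares to set beside each list count below. Epb41l5 of the Crumbs list was not analysed here. Of these 28 calls, 9 held without any 1 of the 6 libraries, namely those of Wwc2, Tead4, Cgnl1, Ywhag, Rab11fip5, Calml4, Anks4b, Dlg3 and Numb, and that of Numb ended under library totals (adjusted p = 0.0703). With libraries scaled to the epithelium markers, 7 of the 13 rises lost their call, among them those of Amotl1, Dlg5, Ikbkb, Mark1, Numbl and Tiam1, and under library totals 9 of the 15 falls did, those of Dlg2, Dnmbp, Marveld3, Myo7b, Numb, Pdpk1, Pvrl3, Rab3ip and Rab8a.

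Among binding partners and substrates of the kinases, 3 of 8 tested genes rose and 2 fell (median log2 fold change 0.40). The balance moved with the scaling, to 5 risen and 0 fallen under library totals, 5 and 1 under upper-quartile factors, and 1 and 2 under epithelium marker scaling. Wwc2, the paralogue of Kibra, was at 7.56, 5.98 and 7.53 CPM in WT intestine 1 to 3 and at 19.3, 28.4 and 37.1 CPM in DKO tumours 1 to 3. All tumours were above all controls, as was not the case for Wwc1, and the log2 fold change was 2.01 (SE 0.26, edgeR adjusted p = 0.00162). Numb, an endocytic regulator of Notch that atypical PKC phosphorylates, averaged 145 CPM (SD 6.58, n = 3) in controls and fell to 97.0 CPM (n = 3, SD 3.58), while its relative Numbl rose from 2.23 to 4.56 CPM. Ikbkb, a kinase of NF-kappa-B signalling, rose by 0.41 on the log2 scale, and Pdpk1, which phosphorylates the activation loop of PKCs and is named here after its value was seen, fell by 0.43. The call for Numbl did not survive leaving out WT intestine 2 or either of DKO tumours 2 and 3 (adjusted p up to 0.0722). That for Ikbkb ended without any 1 library but DKO tumour 1 (up to 0.133) and that for Pdpk1 without any but WT intestine 1 (up to 0.17).

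In the Hippo list, downstream of Kibra, 3 of 19 tested genes rose and 0 fell (median 0.10, and 3 fell without WT intestine 1). Among all genes tested 15.9% rose and 13.8% fell. Under library totals 6 rose and 0 fell, and under epithelium marker scaling 2 rose and 3 fell. Tead4, a DNA-binding partner of YAP, went from 0.66, 0.63 and 1.62 CPM in WT intestine 1 to 3 to 4.41, 15.2 and 10.2 CPM in DKO tumours 1 to 3. This 9.77-fold rise, from few reads in the controls, had a log2 fold change of 3.29 (edgeR adjusted p = 0.00463, SE 0.55). Wwtr1, which encodes the coactivator TAZ, rose from 12.0 to 31.5 CPM and Amotl1, an angiomotin, from 13.1 to 23.6 CPM. Both calls ended without WT intestine 2 (adjusted p = 0.0565 and 0.0629), and that for Wwtr1 also without DKO tumour 3 (0.0547). Tead2 was at 3.19 and 5.77 CPM (adjusted p = 0.0509, and 0.0328 without DKO tumour 2). Fibroblast markers, which summed to between 499 and 593 CPM in WT intestine and to between 890 and 1285 CPM in tumours with 5 of 8 risen and 2 fallen, and endothelial markers, with 4 of 8 risen, moved in the same direction; their part in these rises was not tested.

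In the other polarity complexes, 1 of 5 tested Crumbs genes and 2 of 8 Scribble and Dlg genes fell, and 1 of the latter rose (medians -0.07 and -0.07, with 2 risen without DKO tumour 1). For the Scribble and Dlg list, library totals gave 2 rises and 1 fall and epithelium marker scaling 0 and 3. Dlg3, a membrane-associated scaffold, was at 204, 157 and 148 CPM in WT intestine 1 to 3 and at 85.3, 102 and 90.8 CPM in DKO tumours 1 to 3. WT intestine 1 was highest and no tumour reached a control (log2 fold change -0.88, SE 0.16, edgeR adjusted p = 0.00674). Mpp5, which encodes the Crumbs adaptor Pals1, fell by 0.77 from 239 to 140 CPM, a call that ended without DKO tumour 2 (adjusted p = 0.0535) or DKO tumour 3 (0.0877). Dlg5 rose by 0.68 and the sparsely counted Dlg2 fell by 1.36, and each call ended in at least 4 of the 6 refits (Dlg5 except without WT intestine 3 or DKO tumour 1, Dlg2 except without DKO tumour 1). Crb3, the epithelial Crumbs protein, was at 65.5 CPM (SD 19.7, n = 3) and 62.2 CPM (SD 8.28, n = 3), with an edgeR adjusted p of 0.819. Its log2 fold change of -0.07 is 0.21 under library totals. Of the Lin7 adaptors, Lin7c was at 238 and 226 CPM (adjusted p = 0.728) and the sparse Lin7a at 0.914 and 0.436 CPM (adjusted p = 0.0904). Erbb2ip, a Scribble relative, was at 585 CPM in controls and 412 CPM in tumours (adjusted p = 0.0643, and 0.0168 without WT intestine 1).

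Of 10 genes for Cdc42, Rac1, Rhoa and proteins that control or resemble them, 1 rose and 1 fell (median -0.15). Cdc42, Rac1 and Rhoa were not called (edgeR adjusted p = 0.147, 0.954 and 0.967), though Cdc42 was lower in every tumour. The counts were 1 and 0 under library totals and 0 and 3 under epithelium marker scaling. Tiam1, a Rac exchange factor that binds Par3, rose from 11.1 to 20.3 CPM, and Dnmbp, the Cdc42 exchange factor Tuba, fell from 108 to 75.3 CPM. Tiam1 lost its call without WT intestine 2 or either of DKO tumours 2 and 3 (adjusted p up to 0.0858) and Dnmbp lost its call without WT intestine 2, WT intestine 3 or DKO tumour 3 (up to 0.1). Rhoq, a Cdc42-like GTPase, was at 69.0 CPM in controls and 38.9 CPM in tumours (log2 fold change -0.82, adjusted p = 0.0668). Leaving out DKO tumour 1 brought it past the threshold at -1.27 (adjusted p = 0.00161) and made 2 falls. Arhgap17, a GTPase-activating protein for Cdc42, was at 75.8 and 61.5 CPM (adjusted p = 0.133). The Mark kinases and the 14-3-3 proteins act against the apical complex at the lateral membrane. Of 16 genes for these and for the Lkb1 complex, 2 rose and 0 fell (median 0.02, with 4 risen without WT intestine 1). Under library totals 7 rose and 0 fell, under upper-quartile factors 4 and 0, and under epithelium marker scaling 1 and 2. Ywhag, a 14-3-3 protein, was at 64.9, 63.0 and 69.9 CPM in WT intestine 1 to 3 and at 130, 212 and 193 CPM in DKO tumours 1 to 3 (log2 fold change 1.44, SE 0.19, edgeR adjusted p = 0.00189). The other, Mark1, rose from 2.31 to 4.42 CPM, a call that held without WT intestine 1 or DKO tumour 1 and ended without any 1 of the other 4 libraries (adjusted p up to 0.126). Another 14-3-3 gene, Ywhah, was at 134 and 185 CPM just short of the threshold (adjusted p = 0.0505, and 0.0055 under library totals), and Strada, a partner of Lkb1, was at 6.46 and 9.27 CPM (adjusted p = 0.0588).

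Of 19 junction genes tested, 2 were higher and 2 lower (median 0.08), with 5 and 0 under library totals, 2 and 1 under upper-quartile factors, and 1 and 2 under epithelium marker scaling. Cgnl1, paracingulin, was at 4.63, 7.16 and 9.29 CPM in WT intestine 1 to 3 and at 48.5, 27.6 and 49.2 CPM in DKO tumours 1 to 3. The groups stood far apart, with DKO tumour 2 the lowest tumour (log2 fold change 2.56, SE 0.31, edgeR adjusted p = 0.00129). Pvrl3, which encodes the Par3-binding adhesion protein nectin-3, fell from 248 to 171 CPM and Marveld3, a tight junction protein, from 66.0 to 47.1 CPM. The calls for Pvrl3 and Marveld3 ended in 4 and 5 of the 6 refits, with adjusted p up to 0.135 and 0.0818. They held for Pvrl3 without WT intestine 1 or DKO tumour 1 and for Marveld3 without WT intestine 1. Under library totals Pvrl3 and Marveld3 had adjusted p of 0.221 and 0.214.

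Of 6 genes of the adhesion complex that packs microvilli into the brush border, 5 fell and 0 rose (median -0.89), with counts of 3 without WT intestine 2 and 2 without DKO tumour 3. Calml4, a calmodulin-like light chain, was at 377, 445 and 367 CPM in WT intestine 1 to 3 and at 154, 104 and 115 CPM in DKO tumours 1 to 3 (log2 fold change -1.67, SE 0.19, edgeR adjusted p = 0.001). Anks4b, a scaffold of the complex, averaged 256 CPM (SD 23.6, n = 3) in controls and fell to 131 CPM (n = 3, SD 22.4). The protocadherins Cdhr2 and Cdhr5 fell by 1.03 and 0.80 on the log2 scale, and Myo7b, a myosin named here after its value was seen, by 0.78. The calls for all 3 ended without DKO tumour 3 (adjusted p = 0.0607, 0.0951 and 0.0959), those for Cdhr5 and Myo7b also without WT intestine 2, and that for Myo7b also without WT intestine 3. In the apical trafficking list 1 of 10 genes rose and 2 fell (median -0.37). That count depended on the scaling, with 2 risen and 0 fallen under library totals and 1 risen and 6 fallen under epithelium marker scaling. Rab11fip5, a Rab11 effector, was at 1.80, 3.38 and 2.86 CPM in WT intestine 1 to 3 and at 7.56, 8.52 and 8.52 CPM in DKO tumours 1 to 3 (log2 fold change 1.60, SE 0.26, edgeR adjusted p = 0.00389). Rab8a, a GTPase of apical delivery, fell from 252 to 162 CPM and Rab3ip, its exchange factor, from 50.1 to 37.0 CPM. The call for Rab8a was lost without WT intestine 2 or either of DKO tumours 2 and 3 (adjusted p up to 0.0664) and that for Rab3ip without any 1 library (up to 0.173), and both ended under library totals (0.0596 and 0.337). Slc9a3r1, the ezrin-binding scaffold of microvilli, was at 1343 CPM (SD 523) in controls and 710.3 CPM (SD 163) in tumours (edgeR adjusted p = 0.057).

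**Figure D5:**
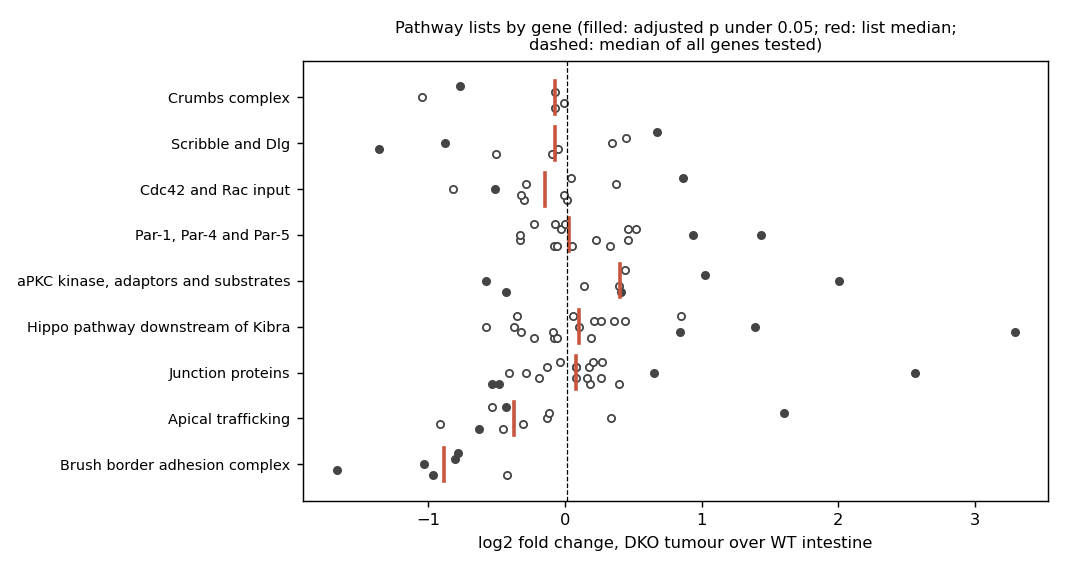
Log2 fold change of each tested gene of the 9 pathway lists, DKO tumour over WT intestine; filled circles have an adjusted p under 0.05, red lines are list medians, and the dashed line is the median of all genes tested. The brush border list lies to the left (median -0.89), Tead4 (3.29), Cgnl1 (2.56) and Wwc2 (2.01) lie farthest to the right, and most lists are centred near 0.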

How the data were processed

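The table the authors deposited holds raw counts for each gene symbol in 6 mice, 1 column each. Build mm10 and the tools STAR and DESeq2, without versions, are named in the submitters' processing notes. Which read counter, annotation and strand setting were used is not given in those sources. Libraries were directional and single-end, per the labels' protocols. Of 23420 rows, 27 held a spreadsheet date in place of a symbol and were set aside (0.218% to 0.241% of a library).

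The 13866 genes that reached 10 counts in 3 libraries entered edgeR's quasi-likelihood test (edgeR 4.0.16, R 4.3.3) with TMM factors. A gene was called where its p, adjusted by Benjamini-Hochberg over all of them, was below 0.05. The SE is the log2 fold change divided by the root of the F statistic, and intervals use its moderated degrees of freedom. The method was tested on simulated counts drawn with the same dispersion for every gene, so that test does not give its error rate in these data. Coordinates, exon lengths and transcripts are from GENCODE M21. Per-length levels divide CPM by the union of annotated exons. Paralogue shares were compared with two-sided exact permutation tests. Alternatives comprised other scalings (library totals, upper-quartile factors, size factors from DESeq2, and 9 epithelium markers), the test of DESeq2 1.42.0, other filters (none, or 50 counts), the replicate number as block, and each library left out in turn.

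The members and lists were chosen with earlier results of these data known. All members are named, with up to 4 genes of each pathway list by smallest adjusted p, called or not. Other called list genes, and Cdc42, Rac1 and Rhoa, were named after their values were seen. Intervals cover the spread between these libraries only. One gene of the junction list is not reported here.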

Additional observations from a re-analysis of the deposited data

How the results depend on the processing

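Prkcz fell and Llgl1 rose in every alternative run, with log2 fold changes of -2.28 to -1.73 and 0.51 to 1.09 outside the fits without 1 library. The number of members called was 2, and 4 under library totals, and it ranged from 2 to 5 in the fits without 1 library, with 5 without DKO tumour 1. The number of all genes called was 4122, and from 1866 (without DKO tumour 3) to 4275 (without DKO tumour 1) in those fits, with 2175 without WT intestine 2 and 2733 without DKO tumour 2. The 5 tests of shares and of the summed level kept their direction in every alternative. The summed kinase level differed by -3.72 CPM per kilobase, by -0.0054 under library totals, and by -7.31 with the longest transcript as length. Library totals gave 3779 rises and 1065 falls and epithelium marker scaling 1119 and 3106, against 2211 and 1911.

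Signs turned in 6 genes that were not called. Under library totals the log2 fold changes were 0.0326 for Pard6g, 0.24 for Llgl2, 0.18 for Lin7c and 0.21 for Crb3. Under upper-quartile factors they were 0.0675 for Llgl2, 0.013 for Lin7c and 0.0125 for Crb3, and under epithelium marker scaling -0.24 for Pard3 and -0.28 for Pard3b. In the fits without 1 library they ranged from -0.0469 to 0.13 for Pard3b, -0.31 to 0.0065 for Pard6g, -0.15 to 0.16 for Llgl2 and -0.21 to 0.19 for Crb3. The cause was not tested.

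The replicate numbers are not stated to pair the libraries. Deviations of same-numbered libraries correlated at 0.0152, 0.0104 and -0.0304, which, with so few libraries, cannot decide whether any were paired. With the replicate number as a block, 3296 genes and the same 2 members were called, and 10 of the 28 pathway calls were lost, those of Cdhr5, Dlg2, Dnmbp, Ikbkb, Mark1, Marveld3, Myo7b, Pdpk1, Pvrl3 and Rab3ip. No filter ended 3 pathway calls, upper-quartile factors 3 and DESeq2 size factors 1. Among the 10 members depth is lowest for Pard6a, at 21 to 52 counts per library.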
